A study of Mus musculus with 4 samples.

Results

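The 36 genes described here encode lysosomal proteins and regulators of their genes: 9 proteases, 9 hydrolases of glycans and lipids, 3 soluble lipid-binding proteins and cofactors, 8 membrane proteins, 5 parts of the proton pump, and the transcription factors TFEB and TFE3. They were chosen by gene symbol and matched by NCBI gene identifier, and all 36 were listed in each of the 4 libraries, among 15935 genes listed in any library. The lysosome is the acidic organelle in which macrophages break down what they engulf. Its enzymes are made as inactive precursors, sorted from the Golgi by sugar tags and receptors, and work at a low pH that a multi-subunit ATPase, the V-ATPase, keeps up by pumping protons. TFEB, TFE3, MITF and TFEC form 1 family of basic helix-loop-helix factors, and TFEB in particular is known to bind short DNA elements in the promoters of many lysosomal genes when it moves from the cytoplasm to the nucleus. A change of that location is not visible in RNA levels.

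RNA was sequenced from bone marrow-derived macrophages of C57BL/6 mice, grown for 5 days from femur and tibia marrow of adult animals in DMEM with a conditioned medium that supplies M-CSF, the growth factor of macrophages. The WT libraries came from wild type animals and the KO libraries from ezh2f/f lysmcre animals, whose genotype the labels also give as EZH2-/-: a floxed Ezh2 gene and a Cre recombinase driven by the lysozyme M promoter, which is active in macrophages, monocytes and neutrophils. EZH2 is the methyltransferase of the Polycomb complex that places the repressive mark on lysine 27 of histone H3. Cells of each genotype were left without treatment (NT) or given lipopolysaccharide (LPS), the bacterial ligand of Toll-like receptor 4, for 2 h. The labels give neither the dose nor whether animals were pooled or whether NT and LPS cells of a genotype shared a culture. With 1 library for each of the 4 groups, no test was run, and none of the differences has a replicate check.

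Library totals were 5237782 to 5678451 expected counts. An expected count is an estimate of the reads of a gene, and FPKM divides it by gene length and library size. Ezh2 itself was low, at 2.84 FPKM without and 2.52 with LPS in WT and 2.06 and 1.29 in KO, from 43, 38, 31 and 18 counts, and the files do not show which exons the reads came from. All 10 macrophage markers checked were listed in every library, with a summed level of 4530 to 4810.4 FPKM, although Lyz2 among them was only at 11.6 to 22.4 FPKM. Of 4 T and NK cell markers, Cd3e and Ncr1 were not listed anywhere and the sum stayed at 0.31 to 1.18 FPKM. B cell markers summed to 0.76 to 3.71 FPKM and 5 dendritic cell markers to 2.98 to 5.07. The 10 markers of neutrophils and their precursors summed to 398 and 437 FPKM in WT NT and LPS and to 674 and 605 FPKM in KO NT and LPS, and 6 fibroblast and stromal markers to 6.42 and 6.16 FPKM in WT and 3.56 and 2.37 in KO. Their part in the genotype differences below was not tested, and in bulk RNA fewer cells of a type and less RNA per cell cannot be told apart.

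The DNA that TFEB and its relatives are known to bind has the core CACGTG, and a longer palindrome of 10 bases, the CLEAR element (TCACGTGA with a G before and a C after it), is the form described for lysosomal promoters. RefSeq promoter windows of GRCm38.p6, from 250 bases before to 50 bases after a gene's start, were at hand for 30 of the 36 genes, in 36 windows, and were searched on both strands (each motif is its own reverse complement, and each shorter one lies within the longer). CACGTG was found for 10 of the 30 genes, or 33.3%, against 8.09% of the 27025 genes with a window. The 8 bases TCACGTGA were found for 6 genes (Ctsa, Ctsd, Mcoln1, Cln3, Atp6v0d1 and Atp6v1a), or 20.0%, against 1.12%. The 10-base form was found for Cln3 alone, against 0.37% of all genes. None of the 3 windows of Tfeb held any of these letters. A match says that these letters are present, not that a factor binds there. For Cln3 and Ctsa the window at the gene's outer start held no match, and the matches lay in another window, at a start inside the gene. The window at the outer start of Cln3 was chr7:126585768-126586067, and the start of Cln3 used below is the inner one. Shown here, 5′ to 3′ on the gene's strand with matches in capitals, are the 250 bases before the start of 4 genes that the results return to: Cln3 (chr7:126583237-126583486, minus strand), the gene with the longest match, Mcoln1 (chr8:3500269-3500518, plus strand), Lamp1 (chr8:13158911-13159160, plus strand), with 4 copies of the core, and Atp6v1a (chr16:44139260-44139509, minus strand), a pump subunit.
Cln3: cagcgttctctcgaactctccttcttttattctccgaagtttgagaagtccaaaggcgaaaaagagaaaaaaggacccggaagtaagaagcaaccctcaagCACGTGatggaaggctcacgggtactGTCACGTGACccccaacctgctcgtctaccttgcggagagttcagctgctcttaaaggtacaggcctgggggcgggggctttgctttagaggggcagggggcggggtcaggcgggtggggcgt
Mcoln1: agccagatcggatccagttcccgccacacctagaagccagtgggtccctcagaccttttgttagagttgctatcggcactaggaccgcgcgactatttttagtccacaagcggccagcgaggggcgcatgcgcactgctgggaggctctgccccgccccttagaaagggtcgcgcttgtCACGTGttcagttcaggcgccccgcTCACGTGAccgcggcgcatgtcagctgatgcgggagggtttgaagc
Lamp1: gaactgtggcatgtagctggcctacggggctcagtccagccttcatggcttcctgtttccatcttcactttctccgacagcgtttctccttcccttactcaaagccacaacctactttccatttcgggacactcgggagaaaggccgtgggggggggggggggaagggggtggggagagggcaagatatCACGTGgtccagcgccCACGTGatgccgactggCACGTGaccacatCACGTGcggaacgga
Atp6v1a: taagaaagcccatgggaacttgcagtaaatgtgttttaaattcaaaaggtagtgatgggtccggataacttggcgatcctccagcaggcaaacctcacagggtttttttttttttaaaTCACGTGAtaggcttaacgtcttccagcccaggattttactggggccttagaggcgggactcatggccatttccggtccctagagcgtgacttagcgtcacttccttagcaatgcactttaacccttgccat
Counted from the start, with -1 the last base before it, the 10-base match of Cln3 lay at -123 to -114 and a separate CACGTG at -149 to -144. In Mcoln1 the 8-base match lay at -46 to -39 and a separate core at -71 to -66. The 4 cores of Lamp1 lay between -61 and -10. In Atp6v1a the 8-base match lay at -132 to -125.

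Lysosomal genes were among the most abundant transcripts of these cells. The 36 genes held 6.98% of all expected counts without LPS and 5.34% with LPS in WT, and 6.62% and 4.93% in KO. Their FPKM summed to 26819 in WT NT and 20509 in WT LPS, and to 25438 and 18884 in KO. The share was thus lower with LPS in both genotypes, and lower in KO than in WT in both states. Ctsb had the highest expected count of all genes in each of the 4 libraries and Psap the second highest. In WT NT 6 members stood at 1000 FPKM or more, among 37 genes at that level, and 23 at 100 FPKM or more, among 704. The levels ran from 2.46 FPKM for Ctsk to 5002 FPKM for Psap in that library.

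**Figure D1:**
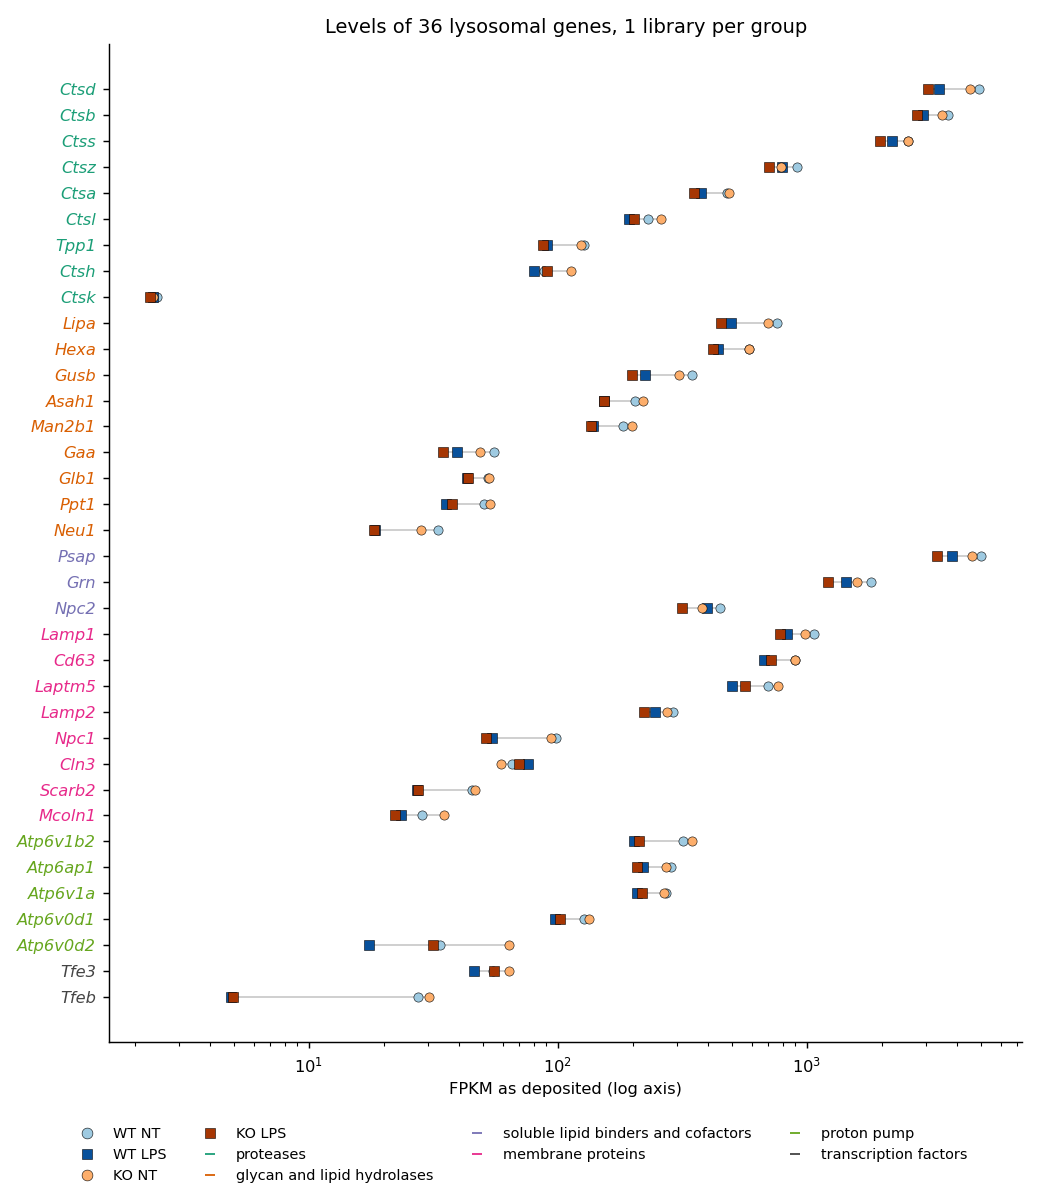
Level of each of the 36 genes in the 4 libraries, in FPKM on a log axis. Circles are libraries without LPS and squares with LPS, light and dark blue WT, light and dark orange KO, and the colour of a gene's name gives its role; each mark is 1 library. The squares lie to the left of the circles for most genes, widest apart for Tfeb, while Cln3 has them to the right; with the median-ratio scaling described further on, 12 genes have both LPS intervals on the higher side.

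Among the proteases, the aspartic protease cathepsin D and the cysteine proteases cathepsins B and S dominated. Ctsd stood at 4907 FPKM without and 3388 with LPS in WT, and 4534 and 3060.3 in KO. Ctsb was at 3691 and 3486 FPKM without LPS in WT and KO, and 2915 and 2779 with LPS. For Ctss, an elastolytic protease that trims the invariant chain of MHC class II, the levels were 2555 and 2541 FPKM without LPS in WT and KO, and 2199 and 1971 with LPS. All 3 were lower in both LPS libraries than in both NT libraries in FPKM as deposited. Ctsz, a carboxypeptidase, was at 911 FPKM without and 798 with LPS in WT, and 788 and 704 in KO, so that WT LPS and KO NT were nearly level. Ctsa, the serine carboxypeptidase also known as protective protein because it stabilises beta-galactosidase and neuraminidase, stood at 477 and 488 FPKM without LPS in WT and KO, and 376 and 352 with LPS. Ctsl, an endopeptidase related to cathepsin S, was at 229.7 FPKM (NT) and 193 (LPS) in WT and 259 and 203 in KO. Its highest value was in KO NT. Tpp1, which removes tripeptides and is mutated in a childhood neuronal ceroid lipofuscinosis, was at 128 FPKM without and 90.3 with LPS in WT, and 124 and 87.1 in KO. Ctsh, an aminopeptidase, was at 87.8 FPKM without and 80.4 with LPS in WT, and 113 and 90.5 in KO, and its KO values were above the WT value of the same state. Ctsk, the collagen-degrading protease of osteoclasts, was the 1 low member, at 2.46 and 2.36 FPKM without LPS in WT and KO, and 2.37 and 2.31 with LPS, from 19 to 22 counts per library. It lies next to Ctss on chromosome 3, with 17398 bases between the 2 genes in GRCm38, and it made up 0.0928% to 0.117% of the pair's summed FPKM in the 4 libraries.

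The glycan and lipid hydrolases spanned a wide range, with acid lipase and beta-hexosaminidase highest. Lipa, which frees cholesterol and fatty acids from lipoprotein lipids, was at 760.4 FPKM without and 498 with LPS in WT, and 697 and 453 in KO. Hexa, the alpha subunit of beta-hexosaminidase, was at 588 and 584 FPKM without LPS in WT and KO, and 438 and 419 with LPS. Gusb, beta-glucuronidase, was at 345 FPKM without and 225 with LPS in WT, and 306 and 199 in KO. These 3 had their lowest value in KO LPS. Asah1, acid ceramidase, was at 204 FPKM (NT) and 153 (LPS) in WT and 219 and 154 in KO, and Man2b1, alpha-mannosidase, at 183 FPKM (NT) and 139 (LPS) in WT and 199 and 136 in KO. Both genes were higher in KO than in WT without LPS and nearly level between genotypes with LPS. Gaa, the alpha-glucosidase that degrades glycogen, was at 55.2 FPKM without and 39.2 with LPS in WT, and 48.8 and 34.6 in KO. The loss of this enzyme causes Pompe disease. Glb1, beta-galactosidase, was at 52.5 and 52.7 FPKM without LPS in WT and KO, and 43.4 and 43.5 with LPS. Ppt1, a thioesterase that removes palmitate from proteins, was at 50.6 FPKM (NT) and 35.4 (LPS) in WT and 53.6 and 37.7 in KO. Neu1, the sialidase that forms a complex with Ctsa and Glb1 proteins, was the lowest of these hydrolases, at 33.1 FPKM without and 18.4 with LPS in WT, and 28.3 and 18.3 in KO.

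Of the soluble non-enzymatic members, Psap encodes prosaposin, the precursor of the saposins that present sphingolipids to their hydrolases. It was at 5002 FPKM without and 3816 with LPS in WT, and 4624 and 3332 in KO. Grn, which encodes progranulin, was at 1806 and 1585 FPKM without LPS in WT and KO, and 1433 and 1212 with LPS. Npc2, a carrier that hands cholesterol to NPC1, was at 446 FPKM without and 398 with LPS in WT, and 379 and 314 in KO. All 3 were highest in WT NT and lowest in KO LPS.

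The membrane proteins were led by LAMP1, the tetraspanin CD63 and LAPTM5. Lamp1 was at 1066 FPKM without and 831 with LPS in WT, and 986 and 777 in KO, and Lamp2, its relative with a role in chaperone-mediated autophagy, at 289 and 275 FPKM without LPS in WT and KO, and 247 and 223 with LPS. Cd63 was at 893 FPKM (NT) and 674 (LPS) in WT and 895 and 720.3 in KO, so without LPS the genotypes were level. Laptm5, a protein of lysosomes in blood cells, was at 701 and 762 FPKM without LPS in WT and KO, and 502 and 563 with LPS. KO exceeded WT for Laptm5 in both states, unlike the LAMP genes. Npc1, the membrane protein that exports cholesterol from lysosomes, was at 98.3 FPKM without and 54.5 with LPS in WT, and 93.6 and 51.7 in KO. Scarb2, the receptor that carries glucocerebrosidase to lysosomes, was at 45.3 and 46.7 FPKM without LPS in WT and KO, and 27.3 and 27.4 with LPS. Both stood far apart between NT and LPS and close together between genotypes. Mcoln1, the calcium-permeable channel mucolipin 1, was at 28.6 FPKM without and 23.4 with LPS in WT, and 34.9 and 22.1 in KO, with its highest value in KO NT. Cln3, a lysosomal membrane protein whose loss causes juvenile neuronal ceroid lipofuscinosis, was at 65.2 FPKM without and 76.0 with LPS in WT, and 59.1 and 70.2 in KO. It was the only member whose 2 LPS values both exceeded its NT values.

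In the proton pump, Atp6v1b2 and Atp6v1a encode the ATP-binding B and A subunits of its cytosolic sector. Atp6v1b2 was at 318 FPKM without and 202 with LPS in WT, and 346 and 211 in KO. Atp6v1a was at 272 and 266 FPKM without LPS in WT and KO, and 207 and 217 with LPS. Atp6ap1, an accessory glycoprotein of the pump, was at 284 FPKM (NT) and 220.4 (LPS) in WT and 272 and 207 in KO. The d subunit joins the sectors and comes from alternative genes, the widely expressed Atp6v0d1 and Atp6v0d2, a form known from osteoclasts, kidney and some macrophages. Atp6v0d1 was at 127 FPKM without and 97.8 with LPS in WT, and 133 and 102 in KO. Atp6v0d2 (chr4:19876838-19922566 in GRCm38) was at 33.6 FPKM without and 17.4 with LPS in WT, and 63.9 and 31.4 in KO, from 481, 247, 914 and 415 counts. Within each genotype the LPS value was 0.492 to 0.517 times the NT value, and in each state the KO value was 1.81 to 1.90 times the WT value, so that KO LPS and WT NT were nearly level. Atp6v0d2 made up 20.9% of the summed FPKM of the d subunit genes without and 15.1% with LPS in WT, and 32.4% and 23.6% in KO.

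Tfeb (chr17:47737037-47792416 in GRCm38) had the widest span of all 36 genes. It was at 27.5 FPKM without and 4.89 with LPS in WT, and 30.4 and 4.94 in KO, from 368, 65, 406 and 61 counts. The NT values lay close together, and so did the LPS values, far below. Tfe3 was at 54.7 and 63.8 FPKM without LPS in WT and KO, and 45.9 and 55.3 with LPS. On this deposited scale its LPS values were only slightly lower. Under the median-ratio scaling described further on, Tfe3 was higher with LPS. Its ratio was then 1.17 (1.06 to 1.28) in WT and 1.17 (1.07 to 1.28) in KO.

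The first comparison asks how lysosomal transcripts differed after 2 h of LPS in WT cells, on the deposited FPKM scale. The FPKM ratio of LPS to NT is given with an exact 95% interval (Clopper-Pearson) that covers counting error only. Tfeb was at 0.178 (0.135 to 0.232) times its NT level. Next lowest were Atp6v0d2 at 0.517 (0.442 to 0.604), Npc1 at 0.554 (0.521 to 0.589), Neu1 at 0.557 (0.492 to 0.630) and Scarb2 at 0.602 (0.549 to 0.660). These 5 genes were lower under the other scaling below too. The major proteases were lower by less, Ctsd at 0.690 (0.681 to 0.700), Ctsb at 0.790 (0.782 to 0.797) and Ctss at 0.861 (0.843 to 0.879). Cln3 was higher, at 1.16 (1.06 to 1.27). The intervals of Ctsh and Ctsk included 1, at 0.915 (0.827 to 1.01) and 0.963 (0.504 to 1.84).

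Read against all genes, the median of these shifts was near that of a typical gene, but it was lower than that of abundant genes. On the scale of log2 of (FPKM + 1), 35 of the 36 members were below 0 in WT, where 78.3% of 10972 genes of at least 1 FPKM in either library were. The intervals of 33 members lay below 1, against 60.4% of genes, and that of 1 above 1, against 13.3%. High counts narrow the intervals of most members, so they pass at smaller folds. At least 2-fold lower was 1 member, Tfeb, against 17.2% of genes, and 0 members were at least 2-fold higher, against 6.41%. The median of the members was -0.39 and that of all genes -0.46, with 13 members below the latter and 23 above. Among the 1801 genes of at least 50 FPKM, a level that 30 members reached, the median was -0.18, 63.9% were below 0 and 4.28% at least 2-fold lower, and those 30 members had a median of -0.38. At these settings the members thus stood near the middle of all genes and below the middle of the abundant ones. Their place among all genes moved with the settings. With 5 in place of 1 added to FPKM, the median of all genes was -0.30 and that of the members -0.39. With 0.1 added these medians were -0.52 and -0.39, and without the limit of 1 FPKM -0.29 and -0.39. The 50 FPKM limit was added once the data had been seen.

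Because so many genes were lower with LPS, the direction of a modest fold depends on the scaling. With the libraries rescaled by their median ratio, the all-gene median moved from -0.46 to -0.03 in WT and from -0.42 to -0.03 in KO, and the members' medians were 0.086 and -0.027. Under that scaling the intervals of 9 members lay below 1 in both genotypes: Tfeb, Atp6v0d2, Npc1, Neu1, Scarb2, Atp6v1b2, Gusb, Lipa and Ctsd. Tfeb was then at 0.248 (0.188 to 0.324) in WT and 0.219 (0.164 to 0.287) in KO. The intervals of 12 lay above 1 in both: Cln3, Ctsb, Ctsl, Ctss, Ctsz, Npc2, Grn, Lamp1, Lamp2, Cd63, Atp6v1a and Tfe3, which except for Cln3 were lower on the deposited scale. Cln3 was then at 1.62 (1.48 to 1.77) in WT and 1.60 (1.45 to 1.76) in KO. Tfeb was the lowest member and Cln3 the highest on either scale.

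**Figure D2:**
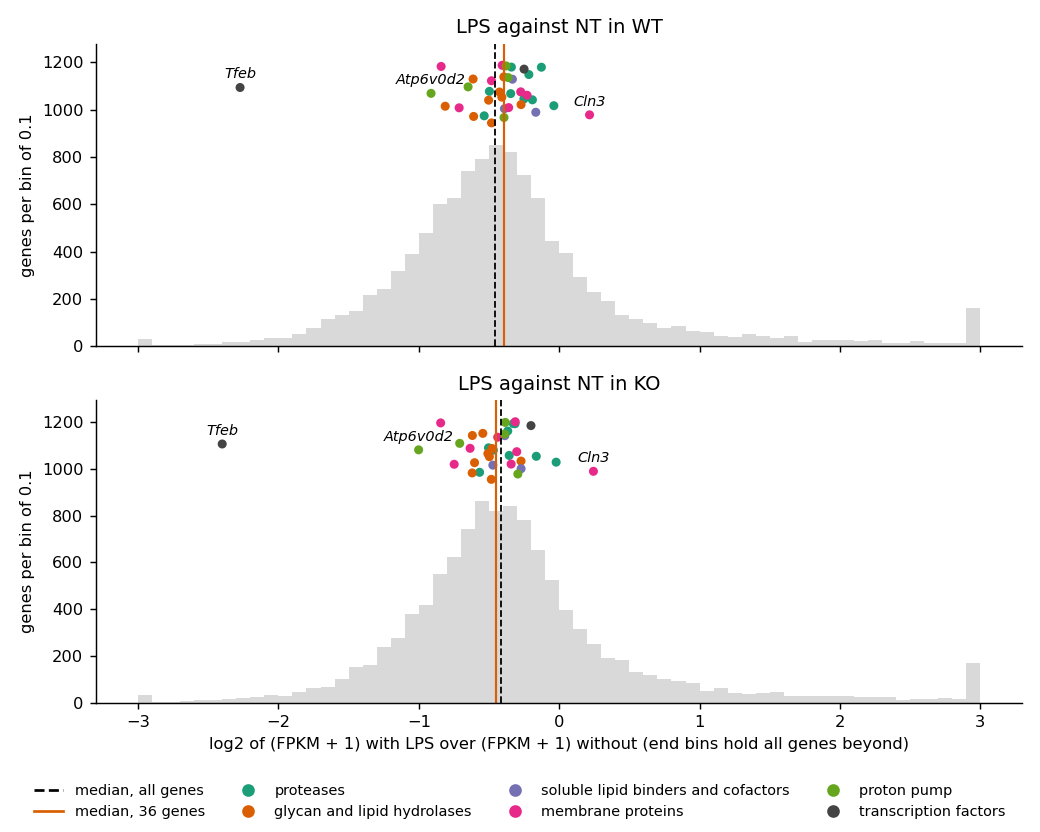
LPS folds of the 36 genes (dots, coloured by role, height arbitrary) over the distribution of all genes tested (grey bars, genes per bin of 0.1), in WT above and KO below; x axis, log2 of (FPKM + 1) with LPS over without. The dashed line is the median of all genes (-0.46 in WT, -0.42 in KO) and the orange line that of the 36 (-0.39 and -0.45); Tfeb lies in the left tail and Cln3 to the right.

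In KO cells the same comparison gave a like order. Tfeb was at 0.163 (0.122 to 0.213) times its NT level, Atp6v0d2 at 0.492 (0.437 to 0.553), Npc1 at 0.552 (0.518 to 0.589), Scarb2 at 0.587 (0.534 to 0.645) and Atp6v1b2 at 0.611 (0.584 to 0.639). Cln3 was again higher, at 1.19 (1.08 to 1.31). Of the 36 members 35 were below 0, against 76.6% of 11069 genes, the intervals of 34 lay below 1, against 57.1%, and of 1 above, against 14.5%. At least 2-fold lower were 2, Tfeb (log2 fold -2.40) and Atp6v0d2, the latter on the edge at -1.001, against 15.1% of genes. None was at least 2-fold higher, where 6.61% of genes were. The members' median was -0.45 and that of all genes -0.42. Among genes of at least 50 FPKM the median was -0.21, and the 30 members at that level had a median of -0.39. Adding 5 in place of 1 to FPKM gave medians of -0.27 for all genes and -0.44 for all members. Adding 0.1 gave -0.47 and -0.45, and dropping the limit of 1 FPKM gave -0.27 and -0.45. Tfeb lay far down among all folds in each genotype: 0.802% of genes had a fold as low or lower in WT and 0.605% in KO.

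By role, the proteases had the highest median and, the 2 factor genes aside, the hydrolases of glycans and lipids the lowest, under both scalings. On the log2 scale the median of the 9 proteases was -0.25 in WT and -0.36 in KO, and that of the 9 hydrolases -0.48 and -0.51. The 3 soluble cofactors were at -0.33 and -0.39, the 8 membrane proteins at -0.38 and -0.39, and the 5 pump genes at -0.39 in both. With median-ratio scaling the proteases were at 0.22 and 0.070 and the hydrolases at -0.014 and -0.083. These differences between roles are small beside the spread within them, which for the membrane proteins ran from -0.84 to 0.22 in WT. Genes with TCACGTGA in their promoter window had a median of -0.36 in WT and -0.43 in KO (6 genes), and the 24 with a window but no such match -0.39 and -0.41.

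TFEB's family and the proteins that hold it in the cytoplasm were measured next, from a list of 22 genes of MiT-TFE factors and nutrient signalling on the lysosome. In contrast to Tfeb, Tfec, a family member found mainly in macrophages and osteoclasts, was higher with LPS, at 15.0 FPKM without and 139.7 with LPS in WT, and 14.3 and 122 in KO. The ratio was 9.30 (7.86 to 11.1) in WT and 8.54 (7.17 to 10.2) in KO. Mitf was at 17.5 and 17.1 FPKM without LPS in WT and KO, and 32.7 and 34.4 with LPS, ratios of 1.87 (1.67 to 2.09) and 2.01 (1.80 to 2.26). Tfeb made up 23.9% of the summed FPKM of the 4 family genes in WT NT and 2.19% in WT LPS, and 24.2% and 2.28% in KO, while Tfec went from 13.1% to 62.6% in WT and from 11.4% to 56.4% in KO. The family sum went from 115 to 223 FPKM in WT and from 126 to 217 in KO. Flcn encodes folliculin, a protein that promotes the retention of TFEB in the cytoplasm. It was lower with LPS, at 42.1 FPKM (NT) and 9.17 (LPS) in WT and 44.9 and 10.8 in KO, the lowest fold of the list in both genotypes. Of its partners, Fnip2 was at 113 FPKM without and 27.1 with LPS in WT, and 116 and 38.2 in KO and Fnip1 at 23.9 and 26.6 FPKM without LPS in WT and KO, and 14.9 and 17.8 with LPS. Fnip2 and Fnip1 were chosen after their values were seen. Of the 21 genes of the list that were measured, 1 was at least 2-fold higher in WT and 4 at least 2-fold lower, against 1 and 3 in KO, beside 6.41% higher and 17.2% lower of all genes in WT and 6.61% and 15.1% in KO, with medians of -0.47 and -0.56 (-0.019 and -0.15 under median-ratio scaling).

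**Figure D3:**
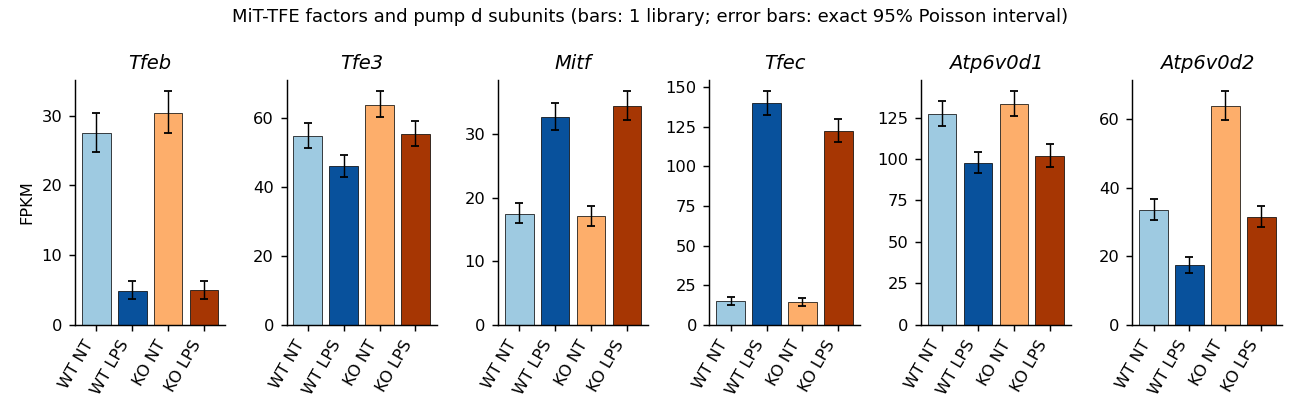
Level of the 4 MiT-TFE factor genes and of the genes for the pump's d subunit in the 4 libraries, in FPKM; each bar is 1 library, each panel has its own axis from 0, and error bars are exact 95% Poisson intervals of the count. Under both scalings Tfeb is lower with LPS in both genotypes where Mitf and Tfec are higher, and Atp6v0d2 is lower with LPS and higher in KO where Atp6v0d1 differs little between genotypes.

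Lists of other genes of the organelle had medians with LPS beside the all-gene medians of -0.46 in WT and -0.42 in KO on the deposited scale, and single genes in them lay far to either side. Their counts stand beside all-gene shares of 6.41% at least 2-fold higher and 17.2% lower in WT, and 6.61% and 15.1% in KO, on log2 of (FPKM + 1). Named are the highest and lowest genes of at least 50 expected counts. Of 18 symbols for other V-ATPase subunits 14 were listed (Atp6v0a3 is an older name of Tcirg1), with medians of -0.29 in WT and -0.27 in KO with LPS (0.19 and 0.15 under median-ratio scaling) and none 2-fold apart on log2 of (FPKM + 1). The highest was Atp6v1e1, at 141 FPKM (NT) and 173 (LPS) in WT and 143 and 169 in KO, and the lowest were Atp6v0a2 in WT (11.3 and 5.35 FPKM) and Tcirg1 in KO (334 and 209). Of 43 other lysosomal hydrolases and activators, 1 was at least 2-fold higher in each genotype and 5 in WT and 4 in KO at least 2-fold lower, with medians of -0.49 and -0.50 (-0.013 and -0.085 under median-ratio scaling). The 1 higher gene was Ctsc, the dipeptidyl peptidase that activates granule serine proteases, at 51.9 FPKM without and 244 with LPS in WT, and 57.1 and 209 in KO. By expected counts the gap was smaller, at 1919 without and 6570 with LPS in WT, and 2014 and 5181 in KO. FPKM also depends on the length listed for a gene. The lowest were the hyaluronidase gene Hyal2 in WT (22.8 and 6.65 FPKM) and the phospholipase gene Pla2g15 in KO (77.6 and 25.7). Of 31 measured genes for other lysosomal membrane proteins, 1 and 2 were at least 2-fold higher in WT and KO, and 7 and 9 lower, with medians of -0.54 and -0.60 (-0.086 and -0.18). Slc15a3, a transporter of histidine and peptides, was highest, at 127 FPKM (NT) and 275 (LPS) in WT and 88.9 and 259.8 in KO, and Mfsd12, a cysteine transporter, lowest, at 179.8 FPKM (NT) and 41.1 (LPS) in WT and 142 and 33.4 in KO.

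Genes that sort lysosomal enzymes, 16 in number, had medians of -0.47 and -0.52 (-0.037 and -0.10). Cln8, which helps enzymes leave the endoplasmic reticulum, was lowest among them, at 43.7 FPKM (NT) and 12.4 (LPS) in WT and 40.4 and 10.7 in KO. Of 24 autophagy genes, 2 were at least 2-fold higher in each genotype and 7 in WT and 6 in KO at least 2-fold lower (all genes 6.41% and 17.2% in WT, 6.61% and 15.1% in KO), with medians of -0.54 and -0.48 (-0.085 and -0.060). Sqstm1, which encodes the autophagy receptor p62, was at 390.1 FPKM without and 1623 with LPS in WT, and 328 and 1341 in KO. Plekhm1, an adaptor for fusion with lysosomes, was lowest, at 59.5 FPKM (NT) and 7.38 (LPS) in WT and 49.8 and 7.50 in KO. Of 12 symbols of cathepsin inhibitors, 9 were listed, and 6 in WT and 7 in KO reached 1 FPKM in either library, with medians of -0.13 and 0.15 (0.52 and 0.48 under median-ratio scaling). Several of these have few counts. Of those with at least 50, Serpinb6a was lowest, at 333 FPKM (NT) and 236 (LPS) in WT and 400.3 and 276 in KO. Highest were Serpina3g in WT (1.45 and 6.85 FPKM without and with LPS) and Cstb, a cystatin, in KO (858 and 793). As a check of the stimulus, Tnf was at 25.2 FPKM without and 4172 with LPS in WT, and 21.1 and 2135 in KO, and all 5 LPS response genes were at least 2-fold higher with LPS in both genotypes.

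The second question is how KO differed from WT before LPS. Atp6v0d2 stood apart: KO NT was at 1.90 (1.70 to 2.13) times WT NT, a log2 fold of 0.91, and 98.8% of genes had a fold as low or lower. Also higher in KO were Ctsh, at 1.28 (1.17 to 1.41), Mcoln1, at 1.22 (1.05 to 1.42), Tfe3, at 1.16 (1.07 to 1.27), and Ctsl, at 1.13 (1.09 to 1.18). Lower in KO were Npc2, at 0.849 (0.822 to 0.876), Neu1, at 0.855 (0.768 to 0.954), Ctsz, at 0.865 (0.837 to 0.894), and Grn, at 0.878 (0.862 to 0.894). The most abundant members were slightly lower, Ctsd at 0.924 (0.913 to 0.935), Psap at 0.925 (0.915 to 0.934) and Ctsb at 0.944 (0.936 to 0.953). Tfeb was at 1.11 (0.957 to 1.28), an interval that included 1.

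No member was 2-fold apart without LPS, where 0.928% of 10990 genes were higher by that rule in KO and 0.883% lower. The intervals of 9 members lay above 1, against 14.1% of genes, and of 13 below 1, against 11.6%. On the log2 scale 20 were below 0, against 46.2% of genes. A high count narrows an interval, so abundant genes such as these pass it at smaller folds. The median of the members was -0.02 and that of all genes 0.02. Among the 1591 genes of at least 50 FPKM the median was 0.007 and 48.5% were below 0. The 31 members at that level had a median of -0.03. Beside Atp6v0d2, the 7 osteoclast markers (a cell type known for that gene) summed to 29.9 FPKM without and 25.5 with LPS in WT, and to 34.1 and 33.2 in KO. Dcstamp among them was at 2.03 and 3.62 FPKM in WT and KO NT, from 21 and 41 counts, Calcr was not listed, and Oscar had 1 count in WT NT and was not listed elsewhere. Of the 4 markers of at least 1 FPKM, 3 were higher in KO in NT (median of the 4 log2 folds 0.41) and 4 in LPS (median 0.36). Of all genes, 46.2% in NT and 37.7% in LPS were below 0. The intervals of 2 of the 4 lay above 1 in each state, against 14.1% of genes in NT and 21.2% in LPS. The part of these markers in the Atp6v0d2 difference was not tested.

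With LPS the genotype difference had a similar shape. Atp6v0d2 was at 1.81 (1.54 to 2.13) times the WT level and Tfe3 at 1.21 (1.10 to 1.33). Ctsh was at 1.13 (1.02 to 1.25) and Laptm5 at 1.12 (1.08 to 1.16). Lower in KO LPS were Npc2, at 0.789 (0.762 to 0.818), Grn, at 0.845 (0.827 to 0.864), Psap, at 0.873 (0.862 to 0.884), Ctsz, at 0.882 (0.850 to 0.914), and Ctss, at 0.896 (0.876 to 0.916). Tfeb was at 1.01 (0.700 to 1.46), from 65 and 61 counts, so a difference within that interval was not detectable at this depth. No member was 2-fold apart, where 1.45% of 10375 genes were higher and 1.12% lower. The intervals of 7 members lay above 1, against 21.2% of genes, and of 15 below 1, against 9.5%. The members' median was -0.06 and that of all genes 0.08, with 30 of 36 below the latter. On the log2 scale 22 were below 0, against 37.7% of genes. Among the 1577 genes of at least 50 FPKM the median was 0.016 and 47.2% were below 0, closer to the members than all genes were. The 27 members at that level had a median of -0.07.

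Across both states, the intervals of 11 members lay below 1 in KO against WT: Ctsb, Ctsd, Ctsz, Gaa, Gusb, Lipa, Npc2, Psap, Grn, Lamp1 and Lamp2. Those of 5 lay above 1 in both: Atp6v0d2, Ctsh, Ctsl, Laptm5 and Tfe3. Of 11320 genes of at least 1 FPKM in any library, 4.6% lay below 1 in both states and 6.99% above. Abundant members pass this rule at smaller folds than most of those genes. With median-ratio scaling, 14 members lay below 1 in both states, Npc1, Cln3 and Atp6ap1 being added, and 3 above, Atp6v0d2, Laptm5 and Tfe3. All 3 soluble cofactors were lower in KO in both states. Within the pump, Atp6v0d1 was at 1.04 (0.963 to 1.13) and 1.04 (0.946 to 1.14) in NT and LPS, intervals that included 1.

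**Figure D4:**
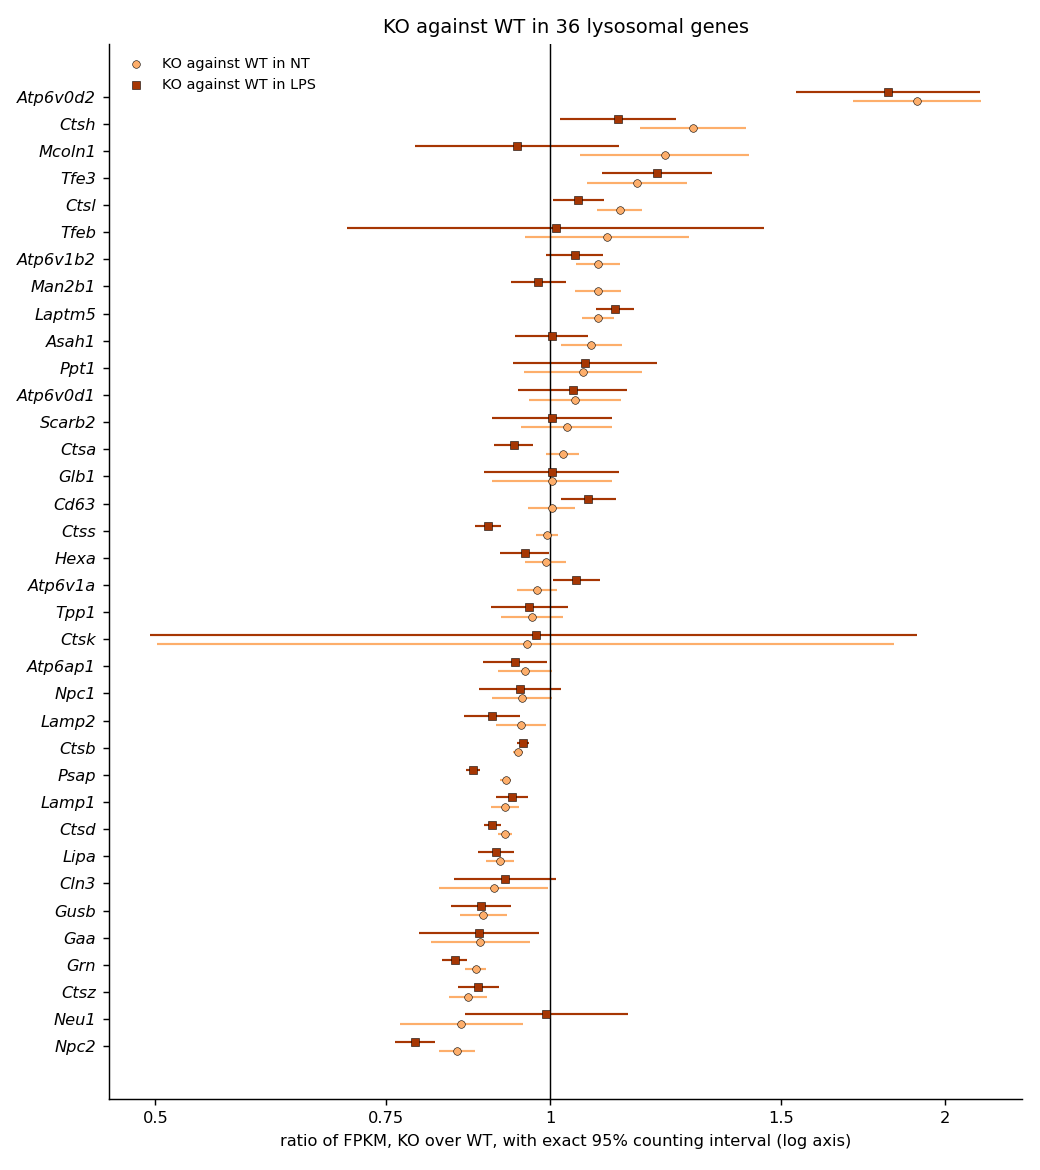
Ratio of FPKM of KO to WT for each of the 36 genes, on a log axis with its exact 95% counting interval, without LPS (light circles) and with LPS (dark squares), ordered by the ratio without LPS. Atp6v0d2 is at 1.90 and 1.81; the other ratios lie between 0.789 and 1.28, and Ctsk, with 19 to 22 counts, has the widest interval.

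The last comparison sets the LPS response of KO against that of WT, as the ratio of their LPS to NT ratios, with the exact conditional interval of an odds ratio from the counts. For 25 of the 36 members the interval included 1, for 9 it lay below and for 2 above, against 4.69% and 11.1% of 11320 genes. High counts narrow the intervals of most members, so ratios near 1 pass, such as 0.978 for Ctsd and 0.963 for Grn. These shares are of all genes and not of abundant ones. With median-ratio scaling 16 members lay below and 0 above, against 6.68% and 7.98% of genes, so the count depends on the scaling. Mcoln1 differed most, at 0.772 (0.611 to 0.976): its log2 fold with LPS was -0.27 in WT and -0.63 in KO. Ctss was at 0.901 (0.874 to 0.929), Man2b1 at 0.901 (0.845 to 0.960) and Ctsa at 0.918 (0.877 to 0.960), all with the lower LPS ratio in KO. Atp6v1a, at 1.07 (1.01 to 1.13), and Cd63, at 1.07 (1.001 to 1.14), had the higher ratio in KO. The 2 members of lowest LPS folds did not show a difference beyond counting error: Tfeb was at 0.914 (0.616 to 1.36) and Atp6v0d2 at 0.951 (0.781 to 1.16). The median of the differences of log2 folds, KO minus WT, was -0.02 for the members and 0.05 for all genes, with 33 of 36 members below the latter.

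Some values rest on counts that cannot be assigned with certainty. Expected counts with fractions, from reads that RSEM divides among genes, occurred for 8 members: Ctsa, Ctsb, Ctsl, Glb1, Neu1, Npc1, Scarb2 and Atp6v0d2. In the GENCODE M21 annotation of GRCm38, exons of 12 of the 36 genes overlap exons of another gene, among them Ctsd (34.4% of its exon bases, with Gm49369) and Ctsl (26.8%, with Gm47123 and Gm49230), while those of Tfeb, Tfe3, Mcoln1 and Atp6v0d2 overlap none. The annotation used for counting was not given, and the counts of Ctsd had no fractions in any library. In GENCODE M21 Cln3 shares 7.65% of its exon bases with Apobr on the other strand, and no source used here says whether the counting used strand. The length listed by the authors differed between libraries for 12 members, by 3.90% at most, for Lamp2 (2591, 2558, 2525 and 2624 bases without and with LPS in WT and then in KO), a gene with alternative last exons.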

How the data were processed

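RNA was sequenced (HiSeq, per the labels' protocols) in 4 libraries, 1 per group, which were assigned by title. Bowtie, RSEM and mm10 are named in the submitters' processing notes; the versions, annotation and strand setting were not given in those sources. The deposited tables list, per the file headers, a gene length, an expected count (RSEM's estimate of a gene's reads) and an FPKM made by the authors. The other columns are identifiers. Totals of 5237782 to 5678451 counts set the precision, and intervals cover counting error only, since each group has 1 library. PCR reads are not independent molecules, so the intervals can understate even that error.

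Symbols and positions came from a RefSeq table of GRCm38.p6, which mm10 denotes; 15897 of 15935 gene identifiers matched. Folds were log2 of (FPKM + 1) ratios over genes of at least 1 FPKM in 1 of the libraries compared. All 36 members passed this filter in every comparison. A gene missing from a table was set to 0. Ratios of FPKM carry exact 95% Clopper-Pearson intervals from counts rounded to whole numbers, and ratios of ratios the exact conditional interval of R 4.3.3 (fisher.test). Python 3.11.15, NumPy 2.4.6, pandas 2.3.3, SciPy 1.17.1 and matplotlib 3.10.9 were used. On simulated counts, of 200 genes changed 3-fold, those called at least 2-fold apart were 195 (of 8937 genes, LPS in WT), 195 (9019, LPS in KO), 196 (8985, KO against WT in NT) and 189 (7895, KO against WT in LPS), and 95.3% to 95.8% of intervals held the true ratio. Counts were drawn from the counting model that the intervals assume, without other spread between libraries, so this coverage checks the calculation only. Genes of at least 50 counts in either library and a count in both were used.

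The members and lists were chosen with earlier results of these data known. All 36 members are named. Of each other context list, the highest and lowest fold with LPS in each genotype are named, where 50 or more counts back it. From the LPS response genes only Tnf is named, outside this rule. Others are named where the text says so. A gene of 1 list is not reported here. Npc1 and 5 more members had no promoter window at hand. The alternatives were pseudocounts of 0.1 and 5, no filter and a filter of 5 FPKM, median-ratio scaling, CPM and a 1.5-fold rule. Counting intervals under 2 of these, the ratio of LPS ratios and the opposite directions under median-ratio scaling, and the set of genes of at least 50 FPKM, were added after the data were seen.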

Additional observations from a re-analysis of the deposited data

Results flagged for a closer look

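Each group held 1 library, so no sample could be compared with others of its group. For 4 of the 36 genes the KO and WT libraries lay in opposite directions without and with LPS, on the log2 scale of FPKM + 1, against 36.6% of 11320 genes, and these differences were not tested over replicates. Mcoln1 was at 0.28 in KO against WT without LPS and -0.08 with LPS, a difference of -0.36. Man2b1 was at 0.12 and -0.03, a difference of -0.15. For Ctsa the values were 0.03 and -0.09, a difference of -0.12. Atp6v1a went the other way, from -0.03 to 0.07, a difference of 0.10, but with median-ratio scaling it was at -0.05 and -0.003, both below 0. Counting intervals of KO over WT included 1 without LPS for Ctsa and Atp6v1a, and with LPS for Mcoln1 and Man2b1. With median-ratio scaling 9 members lay in opposite directions, against 37.8% of genes, Ctsa, Man2b1 and Mcoln1 among them.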

How the results depend on the processing

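Median-ratio scaling, which centres the typical gene, moved the LPS results. The members' median went from -0.39 to 0.086 in WT and from -0.45 to -0.027 in KO, the members with an interval above 1 from 1 to 18 in WT and from 1 to 12 in KO, and those below 1 from 33 to 9 in WT and from 34 to 11 in KO. By construction it shifts all genes of a library alike. In KO with LPS, Atp6v0d2 was no longer 2-fold lower under that scaling or with a pseudocount of 5, which left 1 member of 2. A rule of 1.5-fold in place of 2-fold gave 8 members lower with LPS in WT, 9 in KO, and 1 member (Atp6v0d2) higher in KO than in WT in each state. For KO against WT with LPS, median-ratio scaling left 3 members of 7 above 1. For the ratio of LPS ratios it gave 16 members below 1 in place of 9 and 0 above in place of 2, and 9 members in place of 4 with KO against WT in opposite directions. The other 89 values of member counts and medians under an alternative moved by less than 1.5 times, or for medians by less than the counting error. Of the folds of single members under an alternative, 771 stayed within counting error and 88 moved, all under median-ratio scaling except the Tfeb folds with a pseudocount of 5. No member at least 2-fold apart changed direction. No paired analysis was possible because each group has 1 library and leaving one out leaves nothing to compare. Of all genes, 1887 were at least 2-fold lower with LPS in WT, against 825 with median-ratio scaling, 452 with a pseudocount of 5 and 2787 with one of 0.1. The split of genes at least 2-fold higher and lower was 703 to 1887 in WT and 732 to 1668 in KO, against 1050 to 825 and 1073 to 752 with median-ratio scaling. Over all alternatives, the number of genes lower with LPS ranged from 452 to 4457 in WT and from 399 to 4130 in KO, and the number higher from 485 to 1050 and from 505 to 1136. For KO against WT without LPS, 102 genes were higher (22 to 428) and 97 lower (23 to 336), and with LPS 150 (32 to 590) and 116 (37 to 348), the highest each under the 1.5-fold rule. Depth limits the low members most: Ctsk rests on 19 to 22 counts per library and Tfeb with LPS on 65 and 61.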
